A study of Mus musculus with 44 samples.

Results

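Vehicle cells 8 h after activation were compared with untreated cells in CH12.LX, a line grown from a mouse B cell lymphoma and used as a model of B cell activation. The 8 arrays of this comparison were chosen by their labels alone, out of 44 in the time course: 4 of cells labelled DMSO 8 h and 4 of cells labelled untreated at 0 h. The DMSO 8 h cells had been activated with lipopolysaccharide (LPS) of Salmonella typhosa and given 0.01% dimethyl sulfoxide (DMSO), the vehicle, for 8 h, whereas the untreated cells had received neither and were harvested at 0 h. Both groups were plated at 100000 cells per ml in the same medium, and each replicate was treated and harvested on its own day, so that a replicate number stands for a day. Because untreated cells were taken at 0 h only, LPS, the vehicle and 8 h in culture cannot be told apart in any difference given here. The cells came from 1 line, and the number of wells behind a sample differed with the time point, per the labels. The array is the Affymetrix Mouse 430 2.0 array, and all levels are log2(signal + 16) after quantile normalization, a scale whose lowest value is 4 and on which a difference of 1 stands for a 2-fold change of the shifted signal. Levels are compared within a gene only.

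LPS is a component of the outer membrane of Gram-negative bacteria. Cells sense it through the receptor Tlr4, whose adaptor proteins signal along separate branches to the transcription factor NF-kB, to MAP kinases and to interferon regulatory factors. NF-kB dimers are held in the cytoplasm by inhibitors such as the product of Nfkbia, and the genes they switch on include cytokines as well as their own inhibitors, which gives the pathway its feedback. In B cells LPS is a mitogen that can drive cells to divide, to take on an activated surface and, later, to become antibody-secreting plasmablasts.

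Promoter windows of 6 genes are shown first, because genes of NF-kB, interferon and sterol signalling are described below by group. The windows are those of RefSeq on GRCm38.p6 and run from 250 bases before to 50 bases after the annotated start of the gene, 5′ to 3′ on the gene's strand. Capitals mark letters that match, on either strand, the motif named here for that window. The kB motif, GGG and TTCC with any 3 bases between them, is marked in Il6, Nfkbia, Tnfaip3 and Cxcl10. The interferon response element, GAAA and GAAA with any 2 bases between them, is marked in Stat2. The sterol response element, TCACNCCAC, is marked in Hmgcs1. Matches to the other motifs are left in lower case, such as the interferon response element GAAAGTGAAA in the window of Cxcl10. The windows lie at chr5:30012864-30013163 (plus strand) for Il6, chr12:55492598-55492897 (minus) for Nfkbia, chr10:19015361-19015660 (minus) for Tnfaip3, chr5:92348840-92349139 (minus) for Cxcl10, chr10:128270248-128270547 (plus) for Stat2 and chr13:119690101-119690400 (plus) for Hmgcs1.
Il6: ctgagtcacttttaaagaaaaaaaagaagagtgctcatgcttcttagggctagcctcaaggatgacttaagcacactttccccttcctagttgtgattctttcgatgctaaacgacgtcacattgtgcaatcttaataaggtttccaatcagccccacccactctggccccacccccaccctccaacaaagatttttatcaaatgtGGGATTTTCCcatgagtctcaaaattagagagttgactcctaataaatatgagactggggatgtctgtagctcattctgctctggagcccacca
Nfkbia: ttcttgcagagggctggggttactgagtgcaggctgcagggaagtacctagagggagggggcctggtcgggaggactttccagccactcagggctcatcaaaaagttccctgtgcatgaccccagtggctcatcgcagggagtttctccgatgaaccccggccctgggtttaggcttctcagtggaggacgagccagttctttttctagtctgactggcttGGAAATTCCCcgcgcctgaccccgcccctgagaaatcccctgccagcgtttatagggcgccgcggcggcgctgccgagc
Tnfaip3: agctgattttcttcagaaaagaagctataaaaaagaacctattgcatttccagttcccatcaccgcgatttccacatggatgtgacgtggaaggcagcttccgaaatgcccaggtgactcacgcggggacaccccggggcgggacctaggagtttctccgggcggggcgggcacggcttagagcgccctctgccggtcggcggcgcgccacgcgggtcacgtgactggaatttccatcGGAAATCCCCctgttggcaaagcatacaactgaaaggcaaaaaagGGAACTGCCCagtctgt
Cxcl10: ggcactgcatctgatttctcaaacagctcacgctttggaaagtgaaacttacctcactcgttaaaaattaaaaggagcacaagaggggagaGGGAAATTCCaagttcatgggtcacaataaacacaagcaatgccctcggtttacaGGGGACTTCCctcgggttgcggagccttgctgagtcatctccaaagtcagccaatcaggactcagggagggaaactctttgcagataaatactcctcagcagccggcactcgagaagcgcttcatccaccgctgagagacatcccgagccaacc
Stat2: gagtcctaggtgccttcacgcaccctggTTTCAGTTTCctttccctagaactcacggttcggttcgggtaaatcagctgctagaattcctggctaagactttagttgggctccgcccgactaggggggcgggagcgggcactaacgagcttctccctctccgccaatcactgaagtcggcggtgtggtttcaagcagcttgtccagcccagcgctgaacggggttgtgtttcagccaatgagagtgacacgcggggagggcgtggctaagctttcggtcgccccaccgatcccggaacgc
Hmgcs1: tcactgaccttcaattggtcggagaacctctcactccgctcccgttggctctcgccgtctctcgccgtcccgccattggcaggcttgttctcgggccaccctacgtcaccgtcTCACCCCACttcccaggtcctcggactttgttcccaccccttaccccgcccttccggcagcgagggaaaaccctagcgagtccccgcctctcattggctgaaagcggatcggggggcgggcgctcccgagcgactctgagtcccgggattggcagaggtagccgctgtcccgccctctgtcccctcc

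The match in Il6 begins 44 bases before the start, that in Nfkbia 29 bases before, and those in Cxcl10 159 and 104 bases before. Tnfaip3 has 1 match 12 bases before its start and 1 that begins 33 bases after it. Among genes tested on the arrays, 9717 had a window, and 7.41% of these held the kB motif, against 6.31% of the 27025 genes with a window in all. The motif was present in 10 of 18 genes listed as NF-kB subunits, inhibitors and regulators (55.6%), 4 of them higher at 8 h and 6 not called, and in 6 of 22 cytokine and chemokine genes (27.3%), 3 of them higher, 2 lower and 1 not called. Over all genes called, the kB motif was present in 6.59% of the higher and 8.24% of the lower genes, and in 8.44% of those more than 2-fold higher and 9.12% of those more than 2-fold lower. The interferon response element was present in 3.74% of the tested genes and in 14 of 24 listed interferon-inducible genes (58.3%), 8 of them higher at 8 h and 6 not called. It was found in 5.13% of all higher and 2.59% of all lower genes, in 19 of 154 genes that were called and more than 2-fold higher (12.3%) and in 8 of 285 that were called and more than 2-fold lower (2.81%). The sterol response element was present in 1.41% of the tested genes and in 1 of 14 cholesterol synthesis genes. A match describes these letters only, and a window without one says nothing of a factor.

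At an adjusted p of 0.05 (limma, 1 fit over all 44 arrays, Benjamini-Hochberg), 2945 of 11969 genes differed between DMSO 8 h and untreated cells, which is 24.6%. Of these, 1346 were higher at 8 h (11.2% of the genes tested) and 1599 lower (13.4%). Counts of the gene lists below are to be read against these shares. Most changes were small, with a median size of 0.54 among the higher genes and 0.63 among the lower. More than 2-fold differences were seen in 201 higher and 368 lower genes, and more than 8-fold differences in 7 of each. In 970 of the higher calls (72.1%) all 4 DMSO 8 h arrays lay above all 4 untreated arrays, and in 1194 of the lower calls (74.7%) all 4 lay below; over all genes tested, 9.33% lay apart above and 11.5% apart below. The same-day difference had the direction of the call on all 4 days in 1269 higher and 1504 lower genes. The count was 1519 with only the arrays compared and 3882 with the day as a block.

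Of 8 markers fixed for the B cell label, 7 could be read. Their summed linear signal ran from 11700 to 14000 on the DMSO 8 h arrays and from 24650 to 29330 on the untreated arrays. Of the 7, 6 were called lower, against 13.4% of all genes tested. T cell markers summed to 812.1 to 1051 on DMSO 8 h arrays and 806 to 856 on untreated arrays. Macrophage and monocyte markers summed to 1767 to 2050 on DMSO 8 h arrays and 1666 to 2166 on untreated arrays. Such sums hold different genes, so they are compared between the groups and not between cell types. Of these 14 T cell, macrophage and monocyte markers, 9 were bright enough to be tested. Named after their values were seen, the 3 called among them were Csf1r (1.01), Cd8a (0.63) and Cd28 (-0.93). Plasma cell markers summed to 22620 to 24970 on DMSO 8 h arrays and 30870 to 32590 on untreated arrays, with 1 called higher and 3 lower of 5 tested. In bulk RNA, fewer cells that hold a transcript and less of it per cell cannot be told apart. As a measure of RNA integrity, the log2 ratio of the 3′ to the 5′ control probe sets of the transferrin receptor was 1.10 ± 0.16 in DMSO 8 h cells and 1.73 ± 0.88 in untreated cells (SD, n = 4 each; exact permutation test, two-sided, p = 0.0857, where the smallest possible is 0.0286). Untreated replicate 3 had a ratio of 3.04, against a median of 1.18 over all arrays, and untreated replicate 4 had the highest median signal as deposited, 98.95. Counts are therefore also given without these 2 arrays where they moved by more than 1.5 times; over all genes the count without them was 2197. With this ratio of each array as a covariate 2622 genes were called, 1268 higher and 1354 lower, of which 2369 were among the 2945. Beyond this the part of RNA integrity in the results was not tested.

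Il6, a cytokine that acts on B cells and plasma cells, had signals of 9.84, 9.55, 9.74 and 10.05 in DMSO 8 h cells, against 4.93, 4.86, 5.03 and 5.20 in untreated cells, close to the floor of the scale. The difference was 4.79 ± 0.30 (SE; adjusted p = 5.85e-15), or 27.7-fold on the shifted scale. Il1rn, which encodes a secreted antagonist of the interleukin 1 receptor, stood at 9.68, 9.99, 9.94 and 10.23 at 8 h and at 6.13, 5.80, 5.59 and 5.63 in untreated cells. Zc3h12a, whose product Regnase-1 is a ribonuclease that cuts cytokine transcripts, stood at 10.99, 11.18, 11.33 and 11.57 at 8 h and at 7.49, 7.81, 7.41 and 6.65 in untreated cells. In all 3 genes the groups lay more than 3 units apart at their nearest arrays.

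Ptgs2, the inducible prostaglandin synthase COX-2, had signals of 9.18, 9.13, 9.63 and 10.02 in DMSO 8 h cells and 6.52, 5.60, 5.68 and 5.76 in untreated cells (3.60 ± 0.26, adjusted p = 4.25e-13). Sprr2d, best known as a structural protein of epithelia, rose by 3.80 ± 0.34. Nfkbiz, an atypical NF-kB inhibitor that also activates a set of secondary response genes, had signals of 12.95, 12.95, 12.92 and 13.13 at 8 h, against 10.21, 10.36, 10.11 and 9.84 in untreated cells (2.86 ± 0.15). Of 2 dimmer probe sets of Nfkbiz, 1 gave 2.62 and was called higher, and the other gave -0.40 and was not called. The other genes among the 15 largest rises with arrays apart were Oasl1, Usp18, Ccl5 and Ccl1, described below with their groups, a segment of the immunoglobulin kappa variable region (3.23 ± 0.34), Gm9706 (2.95 ± 0.25), D17H6S56E-5 (2.93 ± 0.20), Asb2 (2.66 ± 0.17) and C2cd2 (2.68 ± 0.15). Of 3 other probe sets of C2cd2, those with 0.82 and 1.37 were called higher, and the one with 0.27 was not called.

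Batf and Milr1 were among the 5 rises with the smallest p-values. Batf, an AP-1 family transcription factor needed for class switching, had signals of 13.36, 13.33, 13.46 and 13.59 at 8 h, against 11.65, 11.72, 11.47 and 11.48 in untreated cells (1.86 ± 0.07, adjusted p = 1.69e-20). Milr1, an inhibitory immunoglobulin-like receptor known from mast cells, averaged 11.31 ± 0.09 at 8 h and 8.83 ± 0.18 in untreated cells (SD, n = 4 each), a difference of 2.48 ± 0.10. In both genes the arrays of a group lay close together and the groups far apart.

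Sla, which encodes an adaptor that dampens antigen receptor signalling, had signals of 7.68, 7.14, 7.27 and 7.09 in DMSO 8 h cells, against 11.06, 10.63, 10.21 and 11.05 in untreated cells (-3.44 ± 0.20, adjusted p = 6.50e-16). Bcl2l11, the gene of Bim, a protein that promotes apoptosis, stood at 6.91, 7.28, 7.80 and 7.41 at 8 h and at 10.58, 10.63, 10.94 and 10.96 in untreated cells (-3.43 ± 0.26). Every DMSO 8 h array lay more than 2 units below every untreated array in both genes. Ackr3, an atypical chemokine receptor that takes up Cxcl12, stood at 8.16, 7.86, 8.20 and 8.19 at 8 h and at 11.12, 10.77, 11.12 and 11.17 in untreated cells (-2.94 ± 0.18).

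The small GTPase genes Rasl10a and Rab30 fell (-3.23 ± 0.44 and -3.11 ± 0.26); a second probe set of Rab30 gave -1.07 and was not called. Itga4, the alpha 4 integrin chain that lets lymphocytes bind VCAM-1 and fibronectin, had signals of 10.01, 9.88, 10.00 and 10.06 at 8 h, against 12.33, 12.28, 11.94 and 12.18 in untreated cells (-2.19 ± 0.12). The pseudokinase genes Trib1 and Trib2 fell (-2.67 ± 0.26 and -2.46 ± 0.15), as did the nuclear receptor coactivator gene Pnrc1 (-2.53 ± 0.25). Filip1l (-2.44 ± 0.14), Rell1 (-2.49 ± 0.16), 1810046K07Rik (-3.22 ± 0.25), AF067061 (-3.09 ± 0.31) and Gm31718 (-2.97 ± 0.32) completed the lower end beside the immediate early genes given below.

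**Figure D1:**
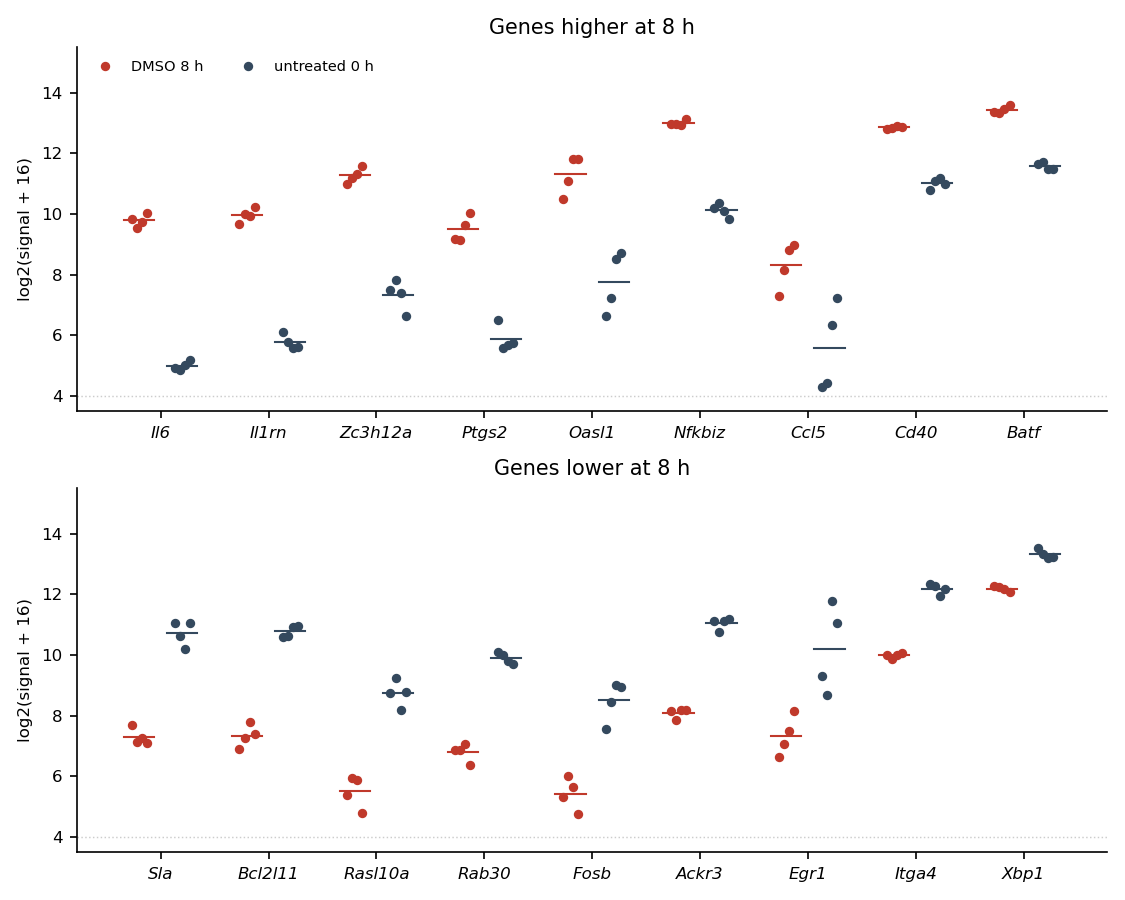
Log2(signal + 16) on each of the 4 DMSO 8 h arrays (red, left) and the 4 untreated arrays (dark blue, right) for 9 genes higher at 8 h (upper row) and 9 genes lower at 8 h (lower row); bars are group means and the dotted line is the floor of 4. In all 18 genes the groups do not overlap, and the untreated arrays of Oasl1, Ccl5 and Egr1 spread widely, with replicates 3 and 4 above replicates 1 and 2.

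Most genes of the LPS receptor and its adaptors were not called. Of 21 tested genes of the Tlr4 receptor and its adaptors, 1 was higher and 4 were lower, a share close to that over all genes, and their median was -0.009 against -0.017 over all genes. Tlr4 was the largest fall, with signals of 7.27, 7.33, 7.09 and 7.05 in DMSO 8 h cells against 8.98, 8.56, 8.50 and 8.95 in untreated cells (-1.56 ± 0.14, adjusted p = 8.09e-11). Cd180, a receptor related to Tlr4 that tunes the LPS response of B cells, had signals of 8.72, 9.01, 9.22 and 9.25 at 8 h and 9.29, 9.43, 9.79 and 10.25 in untreated cells (-0.64 ± 0.20, adjusted p = 0.018). Its call was lost without DMSO 8 h replicate 1 (-0.52), without untreated replicate 4 (-0.45), without the day of replicate 2 (-0.71) or 3 (-0.66), without untreated replicates 3 and 4 (-0.31) and with only the arrays compared.

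Ticam1, the adaptor TRIF of the interferon branch, fell by 0.81 ± 0.20, a call lost without the day of replicate 3 (-0.72) and without untreated replicates 3 and 4 (-0.59). Cd14, the co-receptor that hands LPS to Tlr4, was dim and variable, at 6.14, 5.41, 7.18 and 5.06 at 8 h and 6.58, 7.15, 7.26 and 4.66 in untreated cells (-0.47 ± 0.48, adjusted p = 0.55). The kinase gene Irak1 had a difference of -0.01 ± 0.28 (adjusted p = 0.991), and Tbk1, a kinase of the interferon branch, one of 0.18 ± 0.07 (adjusted p = 0.0634) that passed with the day as a block, with the stricter filter and without untreated replicate 1. The lower count of this list was 2 without untreated replicate 4 and 1 without untreated replicates 3 and 4.

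Among 22 tested NF-kB subunits, inhibitors and regulators, 9 were higher and 3 lower, with a median of 0.29. This is 54.5% called, against 24.6% over all genes. The rises were those of inhibitors and of signalling proteins, and whether NF-kB drove them was not tested. Traf1, a receptor adaptor, had signals of 11.36, 11.37, 11.16 and 11.18 in DMSO 8 h cells, against 9.12, 9.13, 9.46 and 8.87 in untreated cells (2.12 ± 0.16, adjusted p = 1.23e-12). Map3k8, the kinase Tpl2 that links NF-kB to ERK, rose by 1.82 ± 0.25, and Nfkbid, an atypical nuclear inhibitor, by 0.90 ± 0.13. Tnfaip3, the ubiquitin-editing enzyme A20, had signals of 11.24, 11.25, 11.35 and 11.23 at 8 h and 10.53, 10.79, 9.21 and 10.16 in untreated cells (1.10 ± 0.20). Its DMSO 8 h arrays lay within a narrow band, while its untreated arrays spread widely, with replicate 3 the lowest.

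Nfkbia, the main inhibitor of NF-kB, was bright in both groups, at 14.66, 14.53, 14.72 and 14.76 at 8 h and 14.23, 14.27, 13.88 and 14.31 in untreated cells (0.49 ± 0.08, adjusted p = 1.29e-05). Nfkbia was not called without quantile normalization (0.45), and the calls of both Nfkbia and Tnfaip3 were lost with the day as a block on the compared arrays alone. These values are from their brightest probe sets. Dimmer probe sets of Nfkbia with 0.58, 0.96 and 1.17 were called higher, and that with 0.37 was not called. A dimmer probe set of Tnfaip3 gave 1.84 and was called higher. Birc3, a ubiquitin ligase that protects from cell death, rose by 0.77 ± 0.13 on its brightest probe set and had 0.38, not called, as the mean of its probe sets. The 3 lower members were below 2-fold, and their number was 1 without DMSO 8 h replicate 1, without untreated replicate 3 or without untreated replicates 3 and 4.

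Cytokine and chemokine genes moved both ways. Of 29 tested, 12 were higher and 3 lower (51.7% called, against 24.6% over all genes), with a median of 0.30. Without untreated replicate 4 the lower count was 5. Ccl3, a chemokine for monocytes and T cells, had signals of 10.20, 10.39, 11.37 and 11.44 at 8 h and 8.46, 8.48, 8.83 and 8.50 in untreated cells (2.28 ± 0.31, adjusted p = 4.35e-07). Ccl5, another such chemokine, stood at 7.29, 8.17, 8.83 and 8.97 at 8 h, against 4.31, 4.42, 6.36 and 7.22 in untreated cells (2.74 ± 0.43), and Ccl1 at 9.17, 9.45, 11.06 and 10.19 at 8 h, against 6.34, 6.66, 8.59 and 7.87 in untreated cells (2.60 ± 0.51). In all 3 genes replicates 3 and 4 were the higher ones of the DMSO 8 h cells, and in Ccl5 and Ccl1 also of the untreated cells. Ifng, interferon gamma, rose by 1.91 ± 0.32, and Cxcl10, an interferon-inducible chemokine, by 2.03 ± 0.30.

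The 3 cytokine genes that fell did so more than 2-fold. Csf1, the macrophage growth factor, had signals of 7.58, 7.36, 8.04 and 7.42 at 8 h, against 9.77, 10.02, 10.23 and 10.28 in untreated cells (-2.48 ± 0.22, adjusted p = 2.84e-11), while of its other 3 probe sets 1 was called lower (-1.67) and those with 0.20 and -0.46 were not called. Ltb, lymphotoxin beta, which organizes lymphoid tissue, stood at 9.22, 9.58, 10.53 and 10.59 at 8 h and at 11.32, 11.89, 11.80 and 12.03 in untreated cells (-1.78 ± 0.28). Tnfsf14, the related ligand LIGHT, fell by 2.14 ± 0.27. Il10, an anti-inflammatory cytokine, was among the brightest genes in both groups, at 14.23, 14.33, 14.49 and 14.53 at 8 h and 13.89, 14.13, 14.28 and 14.15 in untreated cells. Its difference of 0.28 ± 0.09 (adjusted p = 0.0135) went with overlapping arrays, and the call was lost without DMSO 8 h replicate 3 (0.25) or 4 (0.24), without untreated replicate 1 (0.21), without the day of replicate 1 (0.26) or 4 (0.25), and without quantile normalization.

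Regulators of transcript decay were also called in both directions, 6 higher and 4 lower of 15. Zfp36, tristetraprolin, which removes transcripts with AU-rich elements, had signals of 9.10, 9.10, 9.11 and 9.23 at 8 h, against 7.75, 7.71, 8.51 and 8.38 in untreated cells (1.04 ± 0.15, adjusted p = 8.81e-07). Rc3h2, Roquin-2, rose by 0.93 ± 0.18 on its brightest probe set, with 0.20 as the mean of its probe sets, which was not called. Zc3h12c, a relative of Zc3h12a, fell by 1.29 ± 0.23, so that these 2 members of one family went opposite ways. Without untreated replicates 3 and 4 the counts were 4 higher and 1 lower, and without the day of replicate 3 the lower count was 2.

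Of 32 tested interferon-inducible genes, 19 were higher and 0 lower, with a median of 0.86. With only the arrays compared 10 were higher. Oasl1, a member of the oligoadenylate synthetase family that restrains Irf7, had signals of 10.51, 11.10, 11.80 and 11.82 in DMSO 8 h cells, against 6.66, 7.22, 8.51 and 8.72 in untreated cells (3.53 ± 0.36, adjusted p = 9.75e-10). Usp18, a protease that removes ISG15 and dampens interferon signalling, stood at 10.54, 10.78, 11.18 and 10.96 at 8 h and at 7.33, 7.72, 8.98 and 8.68 in untreated cells (2.69 ± 0.28). Parp14, an ADP-ribosyltransferase, had signals of 11.09, 11.12, 11.60 and 11.22 at 8 h and 8.78, 9.24, 10.55 and 10.21 in untreated cells (1.56 ± 0.22). Untreated replicates 3 and 4 were the highest untreated arrays in each of these 3 genes, so the same-day rise was larger on the days of replicates 1 and 2. The transcription factors that carry the type I interferon signal, Irf9 and Stat2, rose by 1.31 ± 0.13 and 1.27 ± 0.19.

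Of 10 tested prostaglandin and leukotriene genes 4 were higher and 1 lower. Beside Ptgs2, Ptger4, the EP4 receptor for prostaglandin E2, had signals of 11.80, 11.38, 11.60 and 11.58 at 8 h, against 10.15, 9.92, 10.33 and 10.12 in untreated cells (1.46 ± 0.15, adjusted p = 1.12e-09). With only the arrays compared 2 were higher. Acod1, the mitochondrial enzyme that makes itaconate in activated macrophages, rose as well, with 9.87, 10.23, 10.94 and 10.96 at 8 h and 7.33, 8.38, 8.61 and 7.87 in untreated cells (2.45 ± 0.32, adjusted p = 2.05e-07).

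Immediate early genes, which respond to a stimulus within minutes and for a short time, were mostly lower at 8 h than in untreated cells. Of 21 tested, 12 were lower and 2 higher, with a median of -0.92, and 10 of the 12 fell more than 2-fold. Fosb, a subunit of AP-1, had signals of 5.34, 6.02, 5.65 and 4.75 in DMSO 8 h cells, against 7.57, 8.46, 9.02 and 8.96 in untreated cells (-3.06 ± 0.35, adjusted p = 1.77e-08). Fos stood at 6.05, 6.14, 5.69 and 6.26 at 8 h and at 7.65, 7.76, 9.46 and 9.45 in untreated cells (-2.54 ± 0.42). Egr1, a zinc finger factor, stood at 6.63, 7.07, 7.49 and 8.16 at 8 h and at 9.31, 8.67, 11.79 and 11.06 in untreated cells (-2.87 ± 0.39). In Fos and Egr1 the untreated arrays of replicates 3 and 4 were more than 1 unit above those of replicates 1 and 2, and the groups still did not overlap.

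Nab2, a corepressor of Egr factors that they induce, fell (-2.84 ± 0.56), as did Klf6 (-2.08 ± 0.20) and Klf10 (-1.80 ± 0.34). Egr2 fell by 2.25 ± 0.49 (adjusted p = 0.000565), with -1.49 and no call without untreated replicates 3 and 4. Jun was the opposite case among AP-1 subunits, at 10.70, 10.74, 10.62 and 10.69 in DMSO 8 h cells and 9.53, 9.34, 9.54 and 9.15 in untreated cells (1.30 ± 0.12, adjusted p = 1.01e-10). Ier3, an early gene tied to survival, was higher by 0.81 ± 0.17, but by 0.40 without untreated replicates 3 and 4, which was not called. Junb and Ier2 had overlapping groups and differences of 0.05 ± 0.25 and 0.07 ± 0.11 (adjusted p = 0.918 and 0.723). Myc, a factor that drives growth, was bright throughout, at 12.87, 12.67, 12.78 and 12.87 at 8 h and 12.77, 12.83, 12.33 and 12.60 in untreated cells (0.17 ± 0.09, adjusted p = 0.199).

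Phosphatases and feedback inhibitors of MAP kinase and cytokine signalling gave 8 lower and 1 higher of 20, with a median of -0.30. Most were negative regulators of MAP kinases: Dusp6 fell (-2.44 ± 0.38), as did Spred2 (-1.84 ± 0.13), Dusp5 (-1.79 ± 0.47), Dusp14 (-1.56 ± 0.17) and Dusp10, which acts on p38 and JNK, (-1.25 ± 0.19). Dusp6 had signals of 6.20, 4.50, 5.16 and 4.36 in DMSO 8 h cells, against 7.58, 7.30, 8.02 and 7.06 in untreated cells. The call of Dusp5 was lost without the day of replicate 2 (-1.56) and without untreated replicates 3 and 4 (-1.62), and of 3 other probe sets of Spred2 above the filter, 1 was called lower (-1.85) and those with -0.52 and 0.04 were not called. Rgs2, which ends signals of G protein-coupled receptors, fell by 1.32 ± 0.28. The 1 member that rose was Socs3, an inhibitor of Il6 family signalling through Stat3, at 10.05, 9.59, 8.64 and 8.92 at 8 h and 7.75, 6.74, 7.18 and 6.66 in untreated cells (2.22 ± 0.32, adjusted p = 9.75e-07).

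**Figure D2:**
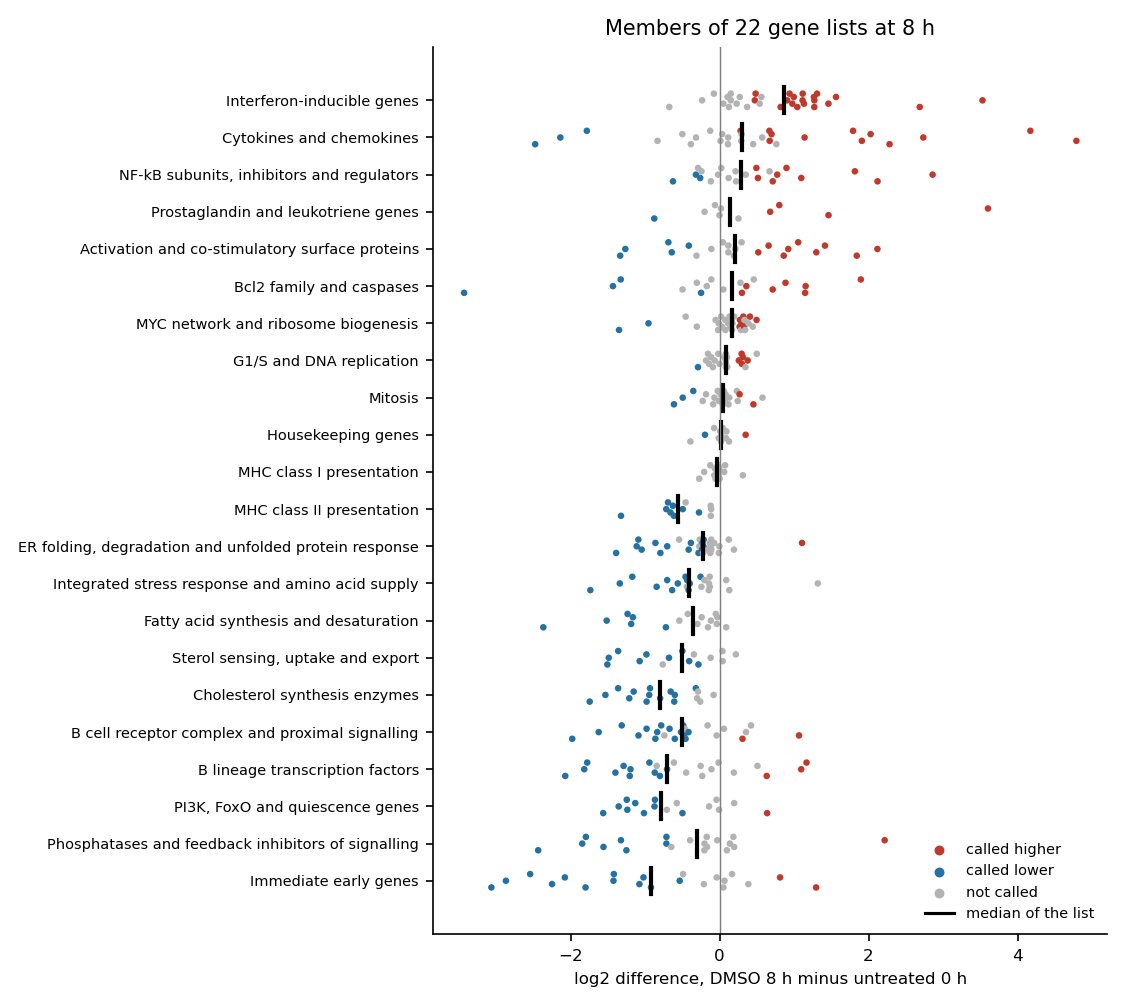
Differences in log2(signal + 16), DMSO 8 h minus untreated, for the tested members of 22 gene lists; each point is a gene, red where called higher, blue where called lower and grey where not called, and the black bar is the list's median. Interferon-inducible genes have 19 red and 0 blue points, cholesterol synthesis enzymes 0 red and 13 blue, and MHC class I genes 0 of either.

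Genes of the B cell receptor and its proximal signalling gave 15 lower and 2 higher of 24, with a median of -0.50. Cd22, an inhibitory receptor of B cells that binds sialic acid, had signals of 7.89, 7.99, 8.78 and 8.55 in DMSO 8 h cells, against 9.97, 10.16, 10.26 and 10.73 in untreated cells (-1.98 ± 0.20, adjusted p = 5.56e-10). Its relative Siglecg fell (-1.62 ± 0.17), as did Inpp5d, the phosphatase SHIP1 that inhibitory receptors recruit, (-1.09 ± 0.17). Cd79b, a signalling chain of the receptor, stood at 11.61, 11.52, 11.62 and 11.84 at 8 h and at 12.82, 12.88, 13.03 and 13.11 in untreated cells (-1.31 ± 0.09). Malt1, a protease that carries the signal to NF-kB, fell (-0.98 ± 0.14), as did Bank1, an adaptor, (-0.86 ± 0.09). Dimmer probe sets gave -0.36 for Inpp5d and -0.33 and -0.35 for Malt1, none of them called. On the brightest probe sets, falls were thus seen for inhibitory and for activating parts of the pathway alike.

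The partner chain Cd79a had 9.64, 10.79, 10.99 and 10.85 at 8 h and 10.43, 11.46, 11.59 and 11.75 in untreated cells, with replicate 1 lowest in both groups. Its difference of -0.74 ± 0.41 did not pass (adjusted p = 0.206), but did with the day as a block and without the day of replicate 1. Cd72, a co-receptor, rose, with signals of 10.82, 10.84, 11.35 and 11.25 at 8 h and 9.92, 10.06, 10.07 and 9.95 in untreated cells (1.07 ± 0.14, adjusted p = 3.71e-07). Blnk, the central adaptor of the receptor, had a difference of 0.06 ± 0.09 (adjusted p = 0.711) between overlapping groups. With the day as a block the list counts were 17 lower and 4 higher.

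B lineage transcription factors gave 11 lower and 3 higher of 23, with a median of -0.71. Ets1, which holds back plasma cell differentiation in mice, had signals of 8.43, 8.14, 7.62 and 7.65 at 8 h, against 10.64, 10.18, 10.03 and 9.28 in untreated cells (-2.07 ± 0.23, adjusted p = 1.03e-08). A dimmer probe set of Ets1 with -2.09 was called lower, and those with -0.72 and -0.63 were not called. Spib, an Ets family factor, fell (-1.40 ± 0.14), as did Pou2af1, the octamer coactivator OCA-B needed for germinal centres, (-1.29 ± 0.09). Aff3 fell by 1.78 ± 0.16 on its brightest probe set, while another gave 0.10. Ebf1, a founding factor of the lineage, rose, with averages of 10.28 ± 0.13 at 8 h and 9.11 ± 0.16 in untreated cells (SD, n = 4 each; difference 1.17 ± 0.16), and of 4 other probe sets those with 0.58, 1.02 and 1.02 were called higher and the one with 0.16 was not called. Myb rose by 1.10 ± 0.08.

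Pax5, which maintains B cell identity, lay near the filter on dim genes, at 6.37, 6.37, 6.71 and 6.69 at 8 h and 6.26, 7.08, 6.95 and 6.86 in untreated cells (-0.25 ± 0.30, adjusted p = 0.61). Bach2, a repressor of Prdm1, had signals of 7.09, 6.68, 6.51 and 5.37 at 8 h and 8.20, 8.28, 6.11 and 6.44 in untreated cells (-0.84 ± 0.39, adjusted p = 0.121). The untreated arrays of Bach2 fall into a high and a low pair, and its difference passed without untreated replicate 3, without untreated replicate 4 and without both. Bcl6, the germinal centre repressor, was below the filter and not tested, with 5.80, 5.66, 6.45 and 5.56 at 8 h and 5.40, 4.68, 4.73 and 4.47 in untreated cells. Ikzf3, Aiolos, had a difference of -0.01 ± 0.07 (adjusted p = 0.921).

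The factors of plasma cell differentiation split. Prdm1, which encodes the repressor Blimp-1, had signals of 10.25, 10.07, 9.82 and 10.30 in DMSO 8 h cells, against 8.39, 7.91, 7.88 and 8.35 in untreated cells (1.98 ± 0.14, adjusted p = 9.82e-14). Irf4, which acts with Batf and is needed for plasma cells, stood at 13.03, 13.06, 13.13 and 13.18 at 8 h and at 11.70, 12.03, 11.39 and 11.55 in untreated cells (1.43 ± 0.11). Xbp1, which builds up the secretory machinery, went the other way, at 12.28, 12.24, 12.17 and 12.07 at 8 h and 13.52, 13.33, 13.19 and 13.24 in untreated cells (-1.13 ± 0.07, adjusted p = 1.35e-15). No DMSO 8 h array overlapped an untreated array in any of the 3 genes.

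Jchain, which joins immunoglobulin M into polymers, stood at 9.32, 9.25, 9.67 and 9.37 at 8 h and at 10.42, 10.25, 10.70 and 10.43 in untreated cells. Although these groups lay apart, the fit over all arrays gave -1.05 ± 0.33 (adjusted p = 0.0181), a call lost without untreated replicate 3 (-0.97), without untreated replicates 3 and 4 (-0.93) and without the day of replicate 1 (-1.03) or 3 (-1.06). Creb3l2, a factor of the secretory pathway, fell by 0.70 ± 0.12, with -0.07 on a second probe set. Of the 11 tested genes of plasma cell differentiation and antibody secretion, 3 were higher and 7 lower; the counts were 2 and 4 without untreated replicates 3 and 4, without the day of replicate 3 and with only the arrays compared.

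**Figure D3:**
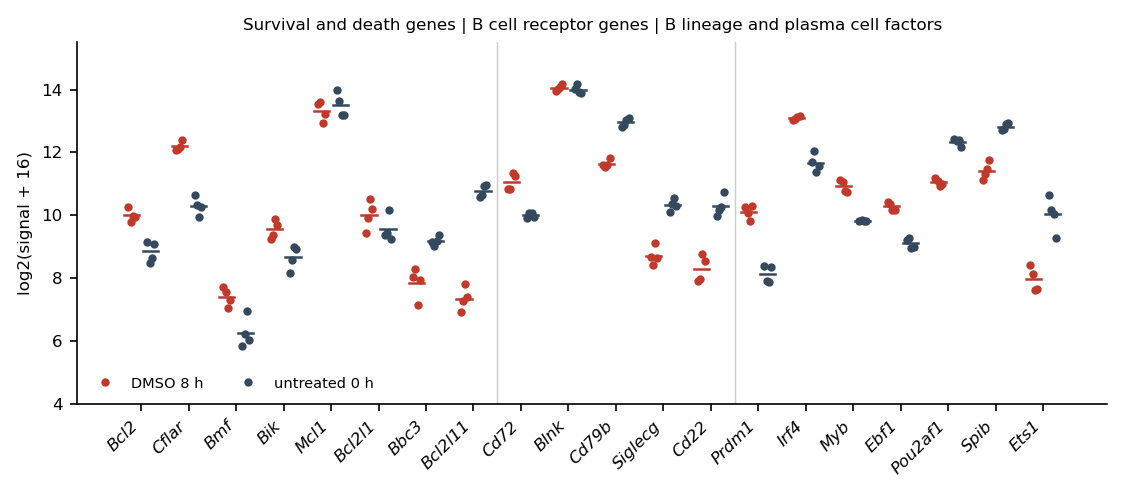
Log2(signal + 16) on each of the 4 DMSO 8 h arrays (red, left) and the 4 untreated arrays (dark blue, right) for 8 genes of survival and death, 5 of the B cell receptor and 7 B lineage and plasma cell factors; bars are group means. Bcl2l11, Cd22, Siglecg, Ets1, Spib and Pou2af1 are lower at 8 h and Cflar, Bcl2, Prdm1, Irf4, Myb and Ebf1 higher, each with no overlap of the groups.

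Activation and co-stimulatory surface proteins were higher in 9 of 22 cases and lower in 5. Cd40, through which T cells help B cells, had signals of 12.81, 12.82, 12.91 and 12.88 in DMSO 8 h cells, against 10.80, 11.08, 11.19 and 10.98 in untreated cells (1.84 ± 0.09, adjusted p = 4.23e-17). Il2ra, the alpha chain of the interleukin 2 receptor, stood at 10.34, 10.60, 10.35 and 10.19 at 8 h and at 8.92, 8.98, 7.86 and 7.24 in untreated cells (2.12 ± 0.23). Cd274, which encodes PD-L1, rose by 1.30 ± 0.19, Cd69, which keeps activated lymphocytes in tissue, by 1.06 ± 0.14, and the hyaluronan receptor gene Cd44 by 0.92 ± 0.14. Among the falls, Cd83, itself a marker of activated antigen-presenting cells, stood at 10.69, 10.66, 11.17 and 10.92 at 8 h and at 12.16, 12.29, 12.10 and 12.22 in untreated cells (-1.33 ± 0.17). The cytokine receptor genes Il4ra and Il21r fell (-1.27 ± 0.20 and -0.69 ± 0.12), as did Cd24a, which encodes a mucin-like surface protein, (-0.64 ± 0.15). Dimmer probe sets above the filter gave -0.98 for Il4ra and -0.37 and -0.63 for Cd24a, none of them called.

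Homing and migration receptors gave 8 lower and 2 higher of 20, with a median of -0.44. Beside Ackr3 and Itga4, Gpr183, which guides B cells to the outer follicle, fell (-1.07 ± 0.19), as did S1pr2, which confines them to germinal centres, (-0.91 ± 0.19) and Cxcr4, the receptor for Cxcl12, (-0.73 ± 0.15). Dimmer probe sets gave -0.58 for Gpr183 and -0.79 for S1pr2, neither of them called. Cxcr4 averaged 10.17 ± 0.16 at 8 h and 10.90 ± 0.08 in untreated cells (SD, n = 4 each), with no overlap of the groups. Ccr7, which draws activated B cells towards the T cell zone, rose, at 12.67, 12.83, 12.99 and 13.08 at 8 h and 11.99, 12.16, 12.24 and 12.05 in untreated cells (0.78 ± 0.10, adjusted p = 8.39e-08). Itgal, the LFA-1 alpha chain, rose by 0.38 ± 0.07.

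Of 18 genes of the Bcl2 family and caspases, 7 were higher and 4 lower. On the protective side, Cflar, which encodes the caspase 8 inhibitor c-FLIP, had signals of 12.09, 12.11, 12.19 and 12.41 in DMSO 8 h cells, against 10.65, 10.34, 9.95 and 10.27 in untreated cells (1.90 ± 0.13, adjusted p = 1.64e-13). Bcl2 stood at 10.26, 9.78, 9.99 and 9.95 at 8 h and at 9.16, 8.49, 8.64 and 9.09 in untreated cells (1.15 ± 0.20). Mcl1 and Bcl2l1, other protective members, had differences of -0.17 ± 0.20 and 0.46 ± 0.28 with overlapping groups (adjusted p = 0.599 and 0.251); these values are from their brightest probe sets. That of Bcl2l1 passed with the day as a fixed block, with the 3′ to 5′ ratio as a covariate and as the mean of its probe sets (1.05), and its 2 other probe sets above the filter were called higher, with 1.29 and 2.09. Of 5 other probe sets of Mcl1, 4 were called lower, with -0.50, -0.49, -0.59 and -0.58, and 1 with 0.07 was not called; the mean of all passed (-0.48).

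Among the pro-apoptotic BH3-only genes, beside Bcl2l11, Bbc3, which encodes Puma, fell, with 8.04, 8.29, 7.15 and 7.93 at 8 h and 9.15, 9.03, 9.19 and 9.36 in untreated cells (-1.33 ± 0.19, adjusted p = 1.22e-06). Bmf and Bik, of the same class, rose by 1.16 ± 0.19 and 0.89 ± 0.19. The BH3-only genes thus held rises and falls together. The number of lower members in this list was 2 without DMSO 8 h replicate 2 or 4, without untreated replicate 1, 2 or 4 and without the day of replicate 2, 3 or 4.

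Genes tied to leaving the cell cycle were mostly lower. Of 16 tested genes of PI3K and FoxO signalling and quiescence, 9 were lower and 1 higher, with a median of -0.79. Klf13 had signals of 6.97, 6.96, 6.94 and 6.81 in DMSO 8 h cells, against 8.52, 8.70, 8.29 and 8.42 in untreated cells (-1.56 ± 0.14, adjusted p = 5.19e-11). Sesn1 and Sesn3, which encode sestrins that restrain mTORC1, fell (-1.25 ± 0.14 and -1.24 ± 0.20), as did Ypel5 and Ypel3, of the yippee family, (-1.36 ± 0.19 and -1.13 ± 0.19), and the antiproliferative gene Tob1 (-1.02 ± 0.19).

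Cyclins, their kinases and inhibitors gave 4 higher and 6 lower of 19, and 2 higher without the day of replicate 2 or 3. Ccnd2, the D-type cyclin that mitogens induce in B cells, stood at 14.30, 14.32, 14.11 and 13.97 at 8 h and at 12.91, 12.60, 12.17 and 12.11 in untreated cells (1.73 ± 0.13, adjusted p = 1.18e-12). Ccng2, a cyclin of arrested cells, fell (-1.65 ± 0.21, and -0.57, not called, on a second probe set), as did the retinoblastoma gene Rb1 (-1.10 ± 0.23), and the kinase inhibitor genes Cdkn2d and Cdkn2c (-0.80 ± 0.12 and -0.75 ± 0.13). Genes of S phase and mitosis were called about as often as all genes, of which 24.6% were called. In the list of G1/S and DNA replication 26.1% were called, 5 of 23 higher and 1 lower, all by less than 2-fold. The higher count ranged from 0 to 6 over the alternatives. In the mitosis list 22.7% were called, 2 of 22 higher and 3 lower. Among them were Mki67 (-0.61 ± 0.12), a marker of cycling cells, and the kinase gene Aurka (0.45 ± 0.09, and 0.06, not called, as the mean of its probe sets).

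Cholesterol synthesis was lower along most of the pathway. Of 17 enzymes tested, 13 were lower and 0 higher, with a median of -0.80, and the 4 not called also had negative differences. In all 13 the DMSO 8 h arrays lay below the untreated arrays. Hmgcs1, which makes HMG-CoA at the head of the pathway, had signals of 11.25, 10.90, 10.75 and 10.77 in DMSO 8 h cells, against 13.14, 12.37, 12.69 and 12.44 in untreated cells (-1.74 ± 0.16, adjusted p = 1.33e-10). Sqle, which commits squalene to sterols, stood at 10.94, 10.90, 10.88 and 10.57 at 8 h and at 11.97, 11.77, 11.69 and 11.77 in untreated cells (-0.98 ± 0.12). Mvd and Idi1, which act before squalene is formed, fell (-1.21 ± 0.18 and -1.15 ± 0.14). After squalene, Cyp51, the lanosterol demethylase, fell (-1.36 ± 0.11), as did Msmo1 (-1.53 ± 0.23).

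**Figure D4:**
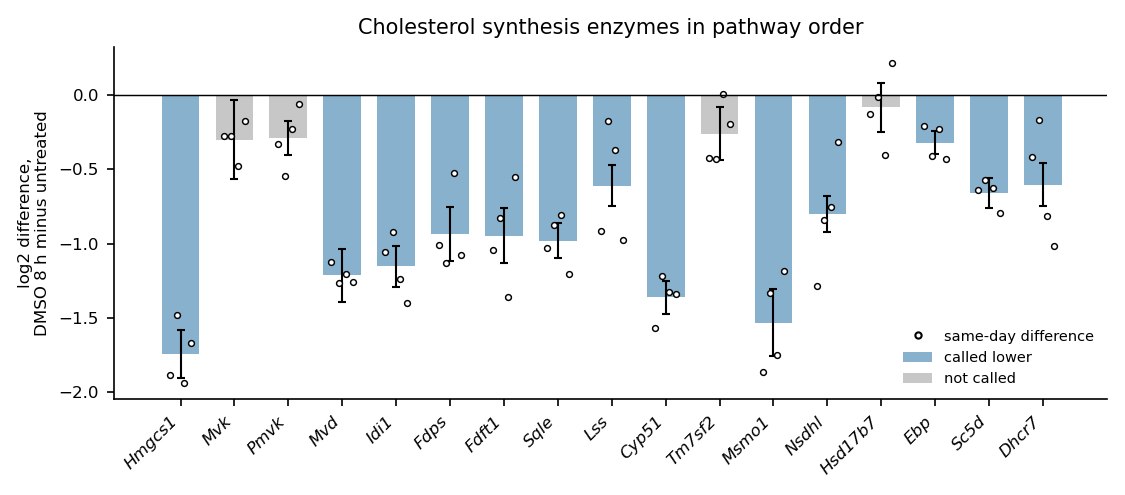
Difference in log2(signal + 16), DMSO 8 h minus untreated, for 17 cholesterol synthesis enzymes in pathway order; bars are fitted differences with their SE, and circles are the same-day differences of the 4 replicates. The 13 enzymes called lower (blue) reach from -0.32 to -1.74, and the 4 not called (grey) lie between -0.08 and -0.30.

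The genes that sense and move sterols were lower too, 9 of 15 with 0 higher, though they include opposing functions. Srebf2, the transcription factor that turns on cholesterol synthesis, had signals of 9.80, 10.38, 10.30 and 10.11 at 8 h, against 11.02, 11.30, 11.30 and 11.26 in untreated cells (-1.07 ± 0.14, adjusted p = 2.26e-07), and its relative Srebf1 fell (-0.98 ± 0.13). Insig1, which retains these factors in the endoplasmic reticulum, fell by 1.51 ± 0.31. Abca1 and Abcg1, which export cholesterol and are induced by LXR when sterols are plentiful, fell (-1.49 ± 0.18 and -1.36 ± 0.24), as did Lipa, the lysosomal lipase that frees cholesterol from esters, (-0.68 ± 0.11). Scap, which escorts the factors to the Golgi, had a difference of -0.12 ± 0.17 (adjusted p = 0.692).

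Of 16 genes of fatty acid synthesis and desaturation, 6 were lower and 0 higher, or 37.5% against 24.6% over all genes. Scd2, a desaturase that makes monounsaturated fatty acids, stood at 12.08, 11.64, 11.18 and 11.31 in DMSO 8 h cells and at 14.03, 13.80, 14.01 and 13.84 in untreated cells (-2.37 ± 0.22, adjusted p = 1.61e-10). Its relative Scd1 fell (-1.16 ± 0.09), as did the elongase gene Elovl5 (-0.72 ± 0.09), Acsl3, which activates fatty acids, (-1.52 ± 0.28), and Lpin1, a phosphatidate phosphatase, (-1.19 ± 0.22). Dimmer probe sets above the filter gave -0.99 for Acsl3 and -0.81 for Lpin1, neither of them called. Fads1 fell by 1.24 ± 0.17, with 0.01 on a second probe set. The enzymes that build the chain itself, Fasn and Acly, had overlapping groups and differences of -0.03 ± 0.12 and -0.16 ± 0.09 (adjusted p = 0.894 and 0.231).

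Genes of folding in the endoplasmic reticulum, its degradation pathway and the unfolded protein response gave 14 lower and 1 higher of 30, with a median of -0.23. Ero1b, an oxidase that forms disulfide bonds and is abundant in secretory cells, had signals of 9.62, 9.60, 9.71 and 9.49 at 8 h, against 11.30, 10.99, 10.80 and 10.88 in untreated cells (-1.39 ± 0.11, adjusted p = 2.09e-12), with -0.50 and no call on a second probe set. Syvn1 and Herpud1, of the degradation complex, fell (-1.09 ± 0.14 and -1.05 ± 0.14), as did the sensor kinase gene Eif2ak3 (-1.11 ± 0.12), or -0.65 as the mean of its probe sets, which was not called. The 1 gene that rose was Ern1, which encodes the sensor IRE1 that splices Xbp1, at 9.85, 9.53, 9.31 and 9.66 at 8 h and 8.15, 8.35, 8.53 and 8.89 in untreated cells (1.11 ± 0.15). Hspa5, the main chaperone BiP, was at 14.72, 14.52, 14.77 and 14.63 at 8 h and 14.65, 14.66, 14.74 and 14.64 in untreated cells (-0.01 ± 0.06, adjusted p = 0.93). The lower count was 8 with only the arrays compared, and 9 without the day of replicate 2 or 4.

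In the list of the integrated stress response and amino acid supply 12 of 22 were lower and 0 higher, a count that ranged from 4 without the day of replicate 3 to 13 over the alternatives; it was 6 without the day of replicate 2 and 7 without untreated replicates 3 and 4. Trib3 fell (-1.74 ± 0.34), as did Chac1, which degrades glutathione, (-1.34 ± 0.32) and the neutral amino acid transporter gene Slc1a4 (-1.17 ± 0.18). The call of Chac1 was lost without untreated replicates 3 and 4 (-1.02). Atf4, the factor that drives this response, had a difference of -0.20 ± 0.11 (adjusted p = 0.212). Of 30 genes of the MYC network and ribosome biogenesis 7 were higher and 2 lower, or 30% against 24.6% over all genes. None of the higher rose by 2-fold. The higher count was 12 with the day as a block, 4 without the day of replicate 1 and 1 with only the arrays compared. Polr1b, a subunit of RNA polymerase I, rose by 0.50 ± 0.10. The 2 lower members, Mxi1 (-0.95 ± 0.15) and Mnt (-1.35 ± 0.24, and -0.50 with no call as the mean of its probe sets), encode repressors that compete with MYC for its partner.

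Antigen presentation genes are given by class. Of 12 tested MHC class II genes 8 were lower and 0 higher, with a median of -0.55, whereas of 14 class I genes limma called 0, with 1 at an unadjusted p below 0.05 and a median of -0.03. H2-Ob, a chain of the H2-O molecule that restrains peptide loading, fell (-1.32 ± 0.25), as did Ifi30, a lysosomal thiol reductase, (-0.72 ± 0.10). Ifi30 had signals of 12.30, 12.43, 12.64 and 12.67 at 8 h and 13.04, 13.26, 13.21 and 13.39 in untreated cells. Cd74, the invariant chain, had a difference of -0.12 ± 0.09 (adjusted p = 0.417), and among class I genes H2-K1 and B2m had -0.00 ± 0.14 and 0.00 ± 0.09 (adjusted p = 0.988 and 0.997). The class II count fell to 3 without DMSO 8 h replicate 1 or without the day of replicate 2, to 5 without untreated replicate 4, to 4 without the day of replicate 4, and to 2 without untreated replicates 3 and 4. The difference between the classes was not tested.

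Smaller lists held single large changes. Cyp1a1, the classic target of the aryl hydrocarbon receptor, had signals of 7.81, 8.14, 8.36 and 8.32 in DMSO 8 h cells without any dioxin, against 6.60, 6.15, 5.71 and 5.56 in untreated cells (2.15 ± 0.19, adjusted p = 3.03e-11). Cyp1b1 rose by 2.01 ± 0.34 over untreated levels near the floor, with 0.50 and no call on another probe set, while Ahr itself had a difference of 0.05 ± 0.16 (adjusted p = 0.865) on its brightest probe set. Another probe set of Ahr gave 1.21 and was called higher (adjusted p = 0.00110 over all probe sets), and the mean of both, 0.63, was called too. Of the 7 genes tested in that pathway 4 were higher, and 2 without the day of replicate 2 or with only the arrays compared. Bach1, a repressor of antioxidant genes, fell (-1.50 ± 0.13), as did Gclc, the catalytic subunit for glutathione synthesis, (-1.04 ± 0.08). Their list had 2 higher and 3 lower of 22, a share of 22.7% near the 24.6% over all genes. Tgfbr2, the type II receptor for TGF-beta, had signals of 10.46, 10.42, 10.75 and 11.14 at 8 h and 12.10, 12.03, 11.93 and 11.94 in untreated cells (-1.31 ± 0.13). A dimmer probe set of Tgfbr2 gave -0.70 and was not called. Tgfbr1 fell (-1.25 ± 0.13) on its brightest probe set, while 2 others gave 0.28 and 0.49 and the mean of its probe sets -0.16, not called.

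The TGF-beta list had 1 higher and 6 lower of 15, or 46.7% against 24.6% over all genes. The lower count was 3 without DMSO 8 h replicate 2, without untreated replicate 4 or without the day of replicate 1 or 2. In the lysosome and autophagy list 1 was higher and 6 lower of 20, or 35% against 24.6% over all genes. Among the lower were Tfeb (-1.29 ± 0.22), the factor that drives lysosomal genes, and Psap (-0.89 ± 0.13), the precursor of saposins. The lower count ranged from 2 to 7 over the alternatives. Glycolysis and hypoxia genes gave 2 higher and 4 lower of 22, a share of 27.3% near the 24.6% over all genes. Among them the hexokinase gene Hk2 was higher by 0.79 ± 0.11, and Ldha had a difference of 0.05 ± 0.08 (adjusted p = 0.709). Of 12 genes often used as constant references 1 was higher and 1 lower, with a median of 0.02. This is 16.7% called, against 24.6% over all genes. Eef1a1 and Rplp0 had differences of 0.01 ± 0.07 and 0.05 ± 0.05.

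Which of these levels had moved 4 h later was asked of the DMSO 12 h arrays, which were fitted against the same DMSO 8 h arrays, so the values of both comparisons share arrays. Between DMSO 12 h and DMSO 8 h cells 172 of 11969 genes were called, 1.44%, with 63 higher (0.526%) and 109 lower (0.911%) at 12 h, and 1263 had an unadjusted p below 0.05. With only the arrays compared 0 genes passed in limma, although 1071 had an unadjusted p below 0.05, and with the day as a block over all arrays 492 passed. Without DMSO 8 h replicate 3 or 4 the count was 86 and 89, and without the day of replicate 2, 3 or 4 it was 47, 82 and 59. Many genes named here were picked for large differences at 8 h, and both comparisons share the DMSO 8 h arrays. Of 186 tested genes named here, 19 were called, a share that is therefore not read as a result.

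Among these Acod1 had the largest change, with a mean of 6.26 at 12 h, against 10.50 at 8 h (-4.24, adjusted p = 3.27e-11), and its mean at 12 h lay below the 8.05 of untreated cells. The means at 24, 36 and 48 h were 6.42, 9.40 and 9.98. Spib was lower at 12 h than at 8 h (-0.95), as were Tnfsf14 (-1.51), Ltb (-1.49) and Ifng (-1.31); the call of Ifng was lost without DMSO 8 h replicate 3 or 4 and without the day of replicate 1, 2 or 4, that of Tnfsf14 without the day of replicate 2 or 4, and that of Ltb without the day of replicate 4. The kinase inhibitor gene Cdkn2d was higher at 12 h by 0.70, Klf13 by 0.90 and Spred2 by 0.70. Each of these genes was lower at 8 h than in untreated cells, but both differences rest on the same DMSO 8 h arrays. None of the 19 calls held in a fit of only the arrays compared, normalized with all arrays or alone, and with the day as a block on those arrays only that of Acod1 held. The calls of Spib, Klf13 and Cdkn2d were lost in no other of the 30 alternatives, and that of Spred2 also with the mean of its probe sets. The other 11 calls were lost in 4 to 15 of the 30. Lower at 12 h were Nfkbid (-0.66), Nfkbiz (-0.56), Irf4 (-0.56), Il10 (-0.52), Scd1 (-0.45) and Batf (-0.32). Higher at 12 h were Trib1 (1.21), Msmo1 (0.91), Scd2 (0.84), Sqle (0.65) and Cdkn2c (0.53).

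Other early changes differed in how long they lasted over the vehicle series, given here as group means in untreated cells and then in vehicle cells from 8 h to 12, 24, 36 and 48 h, with no test. Sla stood at 10.74, 7.30, 7.29, 9.98, 11.48 and 11.77, a low at 8 and 12 h with a level above that of untreated cells at 36 and 48 h. Bcl2l11 stood at 10.78, 7.35, 7.21, 9.23, 8.78 and 8.81, and did not come back to its untreated level. Xbp1 stood at 13.32, 12.19, 12.44, 13.43, 13.69 and 13.88, and Scd2 at 13.92, 11.55, 12.39, 13.64, 13.74 and 13.49. Cd40 was highest at 8 h, with means of 11.01, 12.85, 12.56, 11.66, 11.31 and 11.25. Il6 stood at 5.01, 9.80, 9.18, 9.35, 10.70 and 11.10, and Prdm1 at 8.13, 10.11, 10.19, 10.82, 10.95 and 10.32. Ccl1, by contrast, stood at 7.36, 9.97, 8.47, 5.54, 5.94 and 5.26, below its untreated level from 24 h on.

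**Figure D5:**
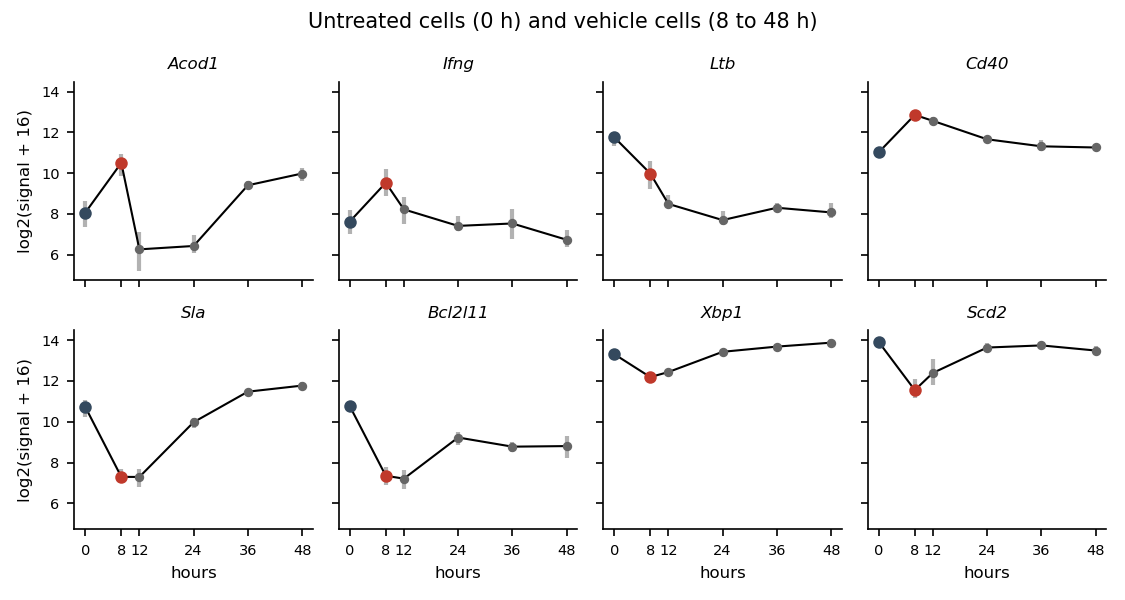
Mean log2(signal + 16) of 8 genes in untreated cells (0 h, dark blue) and vehicle cells at 8 h (red) and 12, 24, 36 and 48 h (grey); bars run from the lowest to the highest of the 4 arrays. Acod1, Ifng and Cd40 have their highest mean at 8 h, Sla, Xbp1 and Scd2 have a low at 8 h or 12 h and are close to or above their untreated mean at 36 h, Bcl2l11 stays below its untreated mean, and Ltb falls on to 24 h.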

How the data were processed

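RNA was measured on 1-colour Affymetrix Mouse 430 2.0 arrays, 1 per sample. The authors deposited 1 signal intensity per probe set, on a linear scale; the submitters' processing notes name GCOS 1.0. In each deposited column the mean after leaving out 2% of values at each end is 500, so arrays had been scaled one by one; further steps are not given in these sources. Groups and replicate numbers came from the labels.

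Because log2 column medians spanned 0.913 (limit 0.2), the deposited signals of all 44 arrays were quantile normalized and turned into log2(value + 16). Of 45101 probe sets 64 controls were left out, 34945 had 1 gene symbol, 932 several and 9160 none, in a platform annotation that can be old; 34741 had a gene identifier found in the RefSeq gene table of GRCm38.p6, by which 0 symbols changed. A gene was read from its brightest probe set with 1 symbol. Of 18193 genes, 11969 had a highest group mean above the median of all values (6.21) and were tested.

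Group means of all 11 groups were fitted together with limma 3.58.1 (R 4.3.3), using empirical Bayes, two-sided, Benjamini-Hochberg over all genes tested, threshold 0.05; the script was tested on simulated data. With 1 line, p-values cover only how its cultures varied over separate days. The series' design text says that every replicate number had a separate day of treatment and harvest, and the numbers therefore pair the samples. Deviations from the group mean correlated with r = 0.41, 0.23, 0.06 and 0.07 for the same-day pairs of replicates 1 to 4, and from -0.39 to 0.39 for other pairs. The counts given first come from the fit that has no term for the day, as written in the design. The arrays' number limits the precision.

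The comparison, the 32 gene lists and the 8 marker lists were chosen with earlier results of these data known, and lists are described by counts and medians without a test. Genes named are the 15 largest rises and falls with arrays apart, the 5 smallest p-values per direction, up to 6 called members per direction and up to 4 of the brightest others of each list, and genes fixed by name; genes of the lists without a probe set here were not analysed. Alternatives were a block for the day (fixed or random), a fit of the compared arrays alone, no quantile normalization, pseudocounts of 1 and 64, other filters, every probe set or their mean, an intensity trend, array weights, the 3′ to 5′ ratio as a covariate, and leaving out arrays or days. Promoter sequences are from RefSeq tables. Plots were made in Python 3.11.15 (matplotlib 3.10.9).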

Additional observations from a re-analysis of the deposited data

Results flagged for a closer look

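Among the genes named above and the 2 array measures, 376 sets of 4 values were examined for an array whose gap to its nearest neighbour takes up more of the range of the 4 than Dixon's critical value allows. Chance alone marks about 1 set in 20, or about 18 here, and 26 values were marked. By array they numbered 3, 3, 3 and 6 for DMSO 8 h replicates 1 to 4 and 3, 2, 4 and 2 for untreated replicates 1 to 4. No cause was tested.

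In DMSO 8 h cells the highest arrays marked were 13.13 for Nfkbiz (replicate 4), 11.35 for Tnfaip3 (replicate 3), 9.23 for Zfp36 (replicate 4), 10.79 for Irf9 (replicate 2), 8.61 for Gm9706 (replicate 1), 12.94 for Ikzf3 (replicate 4) and 15.07 for Rplp0 (replicate 4). The lowest arrays marked were 9.83 for the immunoglobulin kappa variable segment and 9.64 for Cd79a, both in replicate 1. In replicate 2 they were 7.86 for Ackr3 and 7.51 for Gpr183, in replicate 3 they were 5.00 for Gm31718 and 6.40 for Rgs2, and in replicate 4 they were 10.57 for Sqle and 6.81 for Klf13.

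In untreated cells the highest arrays marked were 12.25 for Cyp51 (replicate 1), 8.83 for Ccl3, 12.14 for Mki67 and 12.22 for Hk2 (all replicate 3), and 15.27 for Eef1a1 (replicate 4). The lowest were 10.26 for Inpp5d and 11.02 for Srebf2 (both replicate 1), 10.77 for Ackr3 and 9.28 for Creb3l2 (both replicate 2), and 14.85 for Rplp0 (replicate 4). Untreated replicate 3 also had the transferrin receptor ratio of 3.04 given above, against 1.24 to 1.39 on the other 3 untreated arrays. For Ackr3 the array marked in each group was that of replicate 2, and its same-day difference kept the direction of the call.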

How the results depend on the processing

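The 2945 genes called between DMSO 8 h and untreated cells numbered 1519 in a fit of only those 8 arrays, 1528 when these were also normalized alone, 1557 with the day as a block on them, and 4972 of 21774 when every probe set was tested. With the day as a block over all arrays the number was 3882 (fixed) or 3784 (random, consensus correlation 0.234), and it ranged from 2117 to 2807 when 1 array or 1 day was left out. The 172 genes called between DMSO 12 h and DMSO 8 h cells numbered 0 in the fit of only those arrays (1071 at an unadjusted p below 0.05) and 0 when they were normalized alone (1068). They numbered 1 with the day as a block on them, 492 and 460 with a fixed or a random block for the day over all arrays, 109 with probe sets averaged per gene and 308 with array weights, and ranged from 47 to 198 when 1 array or 1 day was left out. The cause was not tested, beyond fewer arrays and more probe sets entering where so named. Of the 161 named genes called at 8 h, 141 lost the call in none of the 30 alternatives in which they were tested, though 11 of them were too dim to be tested in 1, and most of the other 20 are given above with the value that lost it. Many named genes were picked from these same data for large changes or small p-values, so this share does not describe all calls. Over all genes, 1483 of the 2945 calls were kept in the fit of only the arrays compared. The day as a block changed the call of these named genes: on the compared arrays alone it was lost for Tnfaip3, Nfkbia, Il10, Rc3h2, Bmf, Itgal, Polr1b and Cdkn2d, and in at least 1 form of the block it was gained for Tbk1, Cd79a and Bcl2l1; no other call of a named gene changed with it. Of the 25 named genes not called, 14 changed sign in at least 1 alternative. Of the 87 called named genes with another probe set above the filter, 54 had every such set called in the same direction and 0 had one called in the opposite direction. Dim genes near the floor have understated differences, and the number of arrays limits the precision of all.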
